A study of Mus musculus with 19 samples.

Results

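The Id proteins and the E proteins are 2 opposing groups of helix-loop-helix transcription regulators, and 6 of their genes are described here: the inhibitors Id1, Id2 and Id3 and the E protein genes Tcf3, Tcf4 and Tcf12. They were taken by name from the probe sets that carry a single gene symbol, and all 6 of 6 were measured among 22180 genes. Each was read by 1 probe set: 17377778 for Id1, 17280310 for Id2, 17420016 for Id3, 17242931 for Tcf3, 17351594 for Tcf4 and 17528714 for Tcf12. The 19 microarrays came from thymocytes of C57BL/6 mice sorted into 3 populations, each from WT animals and from animals with loxP-flanked Raptor alleles and a CD2-driven Cre, titled Raptorfl/fl and given the genotype Rptor-/-. Raptor, the product of Rptor, is the subunit that defines the kinase complex mTORC1. DN3a cells (CD4 and CD8 negative, CD25 high, CD44, CD28, TCRγδ and TCRβ negative) stand where the αβ and γδ lineages part. ISP cells (CD8 positive, CD4 and TCRβ negative) are on the αβ branch. The γδ T cells were gated by the absence of CD4, CD8, TCRβ, NK1.1 and Gr1, with no positive marker named in the gate. ISP cells gave 4 WT and 3 Raptorfl/fl arrays, while DN3a cells and γδ T cells gave 3 arrays per genotype. The labels do not give the age of the mice or say whether WT animals carried the Cre or whether each array holds a different animal. The p-values therefore reflect only how far these arrays spread, which may be technical.

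E proteins bind DNA as dimers at short motifs called E-boxes through a basic region next to their helix-loop-helix. Id proteins have the helix-loop-helix without the basic region, so a dimer of an Id protein and an E protein cannot bind DNA. In the thymus E proteins, above all those of Tcf3 and Tcf12, drive receptor gene recombination and the pre-TCR α chain and hold cells at the checkpoints before a receptor is made. Signals from the pre-TCR or from the γδ receptor induce Id3 through ERK and EGR factors, which lowers E protein activity, and a strong signal with high Id3 is known to accompany γδ commitment. Id2 is known from innate lymphoid, natural killer and effector T cells, and Tcf4 from plasmacytoid dendritic and B cells.

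The start regions of Id3 and Id2 are shown because these were the inhibitors whose signal differed between groups and both were higher in γδ T cells than in DN3a cells. The sequences are the 250 bases before the RefSeq start site in GRCm38.p6, 5′ to 3′ on the gene's strand, at chr4:136143572-136143821 (plus strand) for Id3 and chr12:25096093-25096342 (minus strand) for Id2. Capitals mark matches, on either strand, to the E-box CANNTG, the EGR motif GCGNGGGCG, the GC element GGCGCC known from BMP-responsive genes, the CCAAT box CCAAT and the TATA core TATAA.
Id3: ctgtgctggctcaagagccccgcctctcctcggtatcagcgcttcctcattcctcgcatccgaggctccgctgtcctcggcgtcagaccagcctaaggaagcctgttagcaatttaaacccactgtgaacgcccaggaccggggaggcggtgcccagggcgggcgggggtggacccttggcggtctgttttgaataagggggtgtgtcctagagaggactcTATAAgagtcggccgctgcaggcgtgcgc
Id2: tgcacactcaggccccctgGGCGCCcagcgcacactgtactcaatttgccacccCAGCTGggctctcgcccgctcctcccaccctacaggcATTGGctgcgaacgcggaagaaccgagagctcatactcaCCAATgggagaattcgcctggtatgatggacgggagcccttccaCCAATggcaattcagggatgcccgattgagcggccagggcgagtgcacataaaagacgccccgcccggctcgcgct
The Id3 window held 1 match, the TATA core starting at -29 from the start site. The Id2 window held 1 E-box at -196, 1 GGCGCC at -231 and 3 CCAAT boxes at -159, -120 and -76, and no 2 matches overlapped. Of 32851 such windows in the RefSeq table, 66.2% held an E-box, 4.7% the EGR motif, 9.59% GGCGCC, 33.8% a CCAAT box and 22.8% a TATA core. These matches describe the letters of the windows only. The table also held windows of Tcf3 and Tcf12.

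Values are log2 signals, so a difference of 1 is a 2-fold change, and a gene is said to have risen, fallen or changed where limma's adjusted p over all genes was under 0.05. The median signal of an array was 3.80 to 3.88 for ISP cells (7 arrays) but 6.03 to 6.13 for DN3a and γδ T cells (12 arrays), and ISP levels are not set against the others. Rptor fell in all 3 populations without being lost, with a difference of -0.58 in DN3a cells (10.16 to 10.34 on WT and 9.55 to 9.75 on Raptorfl/fl arrays), -0.30 in γδ T cells (9.74 to 9.79 and 9.40 to 9.52) and -0.24 in ISP cells (6.34 to 6.49 and 6.06 to 6.34). Whether its probes lie in the deleted part of the gene was not analysed here, so Raptorfl/fl names the label of an array. The Rptor call held without any single DN3a array, but in γδ T cells it was lost without any of the 6 arrays (-0.33 to -0.27), and in ISP cells without Raptorfl/fl arrays 1 or 2 or WT arrays 1, 2 or 4 (-0.24 to -0.18). Sorting markers of ISP and DN3a cells were present. Cd8a was at 11.33 ± 0.12 (SD, n = 4) on WT ISP arrays and Il2ra (CD25) at 12.58 ± 0.06 (SD, n = 3) on WT DN3a arrays. Cd3e, a CD3 chain of all T cells, does not set γδ T cells apart. It was at 12.20 ± 0.06 on WT γδ and 12.44 ± 0.07 on WT DN3a arrays (SD, n = 3 each). Of the 3 measured γδ markers Sox13 was 2.78 higher in WT γδ than in WT DN3a cells, while Cd3g (-0.39) and Cd3e (-0.24; -0.22 to -0.21 where its call was lost, without WT DN3a array 1 or WT γδ arrays 1 or 2) were lower. The constant regions of the γ and δ receptor chains were not analysed here. In sorted cells fewer cells of a type and less RNA per cell cannot be told apart.

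In Raptorfl/fl ISP cells 1 of the 6 genes changed. Id3, the inhibitor that receptor signals induce, fell to 20.5% of its WT signal, while its relatives Id1 and Id2 and all 3 E protein genes did not pass the test. In the same comparison 12.4% of all genes passed, 5.87% higher and 6.57% lower. Id3 stood at 8.93, 8.66, 9.04 and 8.93 on WT arrays 1 to 4 and at 6.64, 6.74 and 6.43 on Raptorfl/fl arrays 1 to 3. Every Raptorfl/fl array lay below every WT array, with 1.92 log2 units between the closest pair. The means were 8.89 ± 0.16 (SD, n = 4) and 6.60 ± 0.16 (SD, n = 3), a difference of -2.29 (SE 0.12, limma adjusted p = 1.1e-09). An exact two-sided permutation test gave p = 0.0571, the smallest that 4 arrays against 3 allow.

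**Figure D1:**
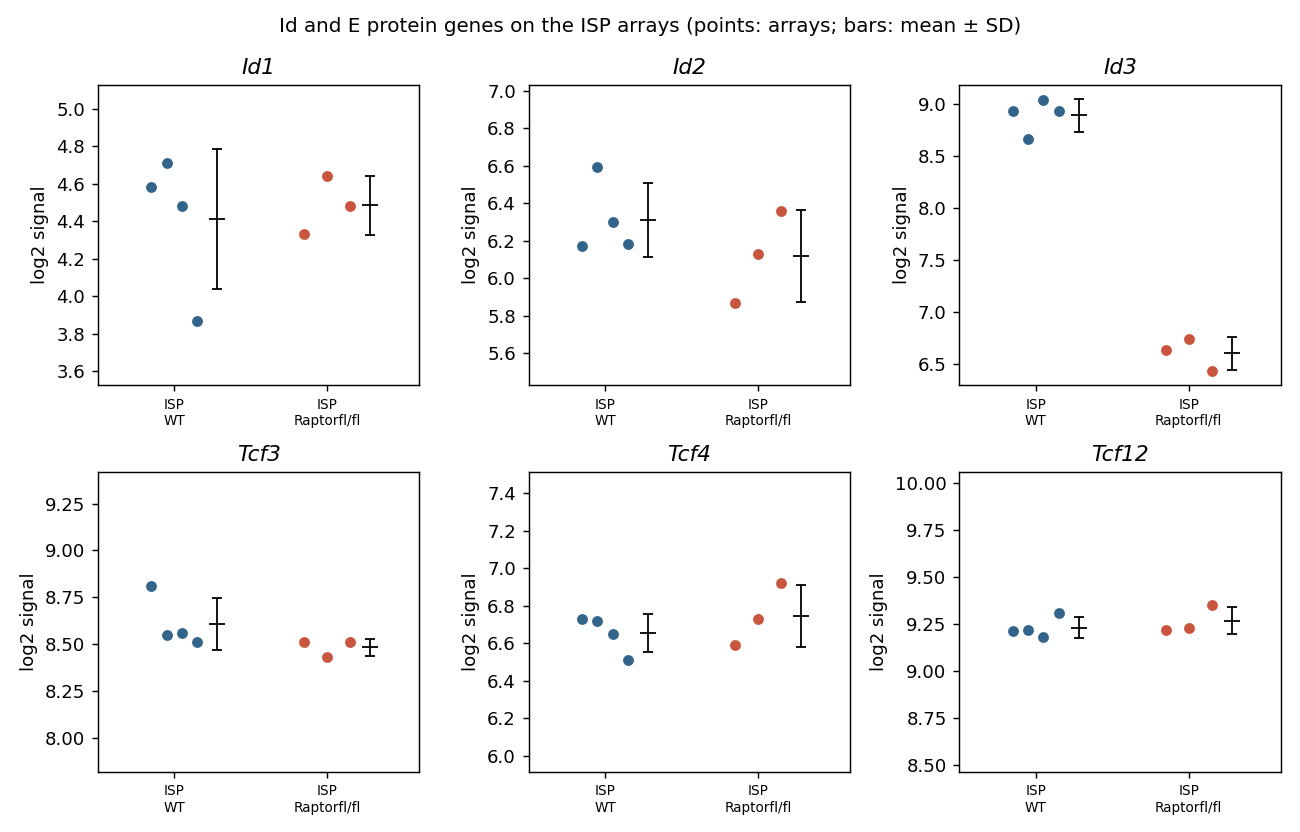
Log2 signal of the 6 genes on the ISP arrays, 1 point per array (4 WT in blue, 3 Raptorfl/fl in red), with the mean ± SD as a black bar; each panel has its own axis range. Id3 is the panel in which the genotypes separate, with WT arrays from 8.66 to 9.04 and Raptorfl/fl arrays from 6.43 to 6.74.

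The other inhibitors overlapped between the genotypes in ISP cells. Id2 was at 6.17, 6.59, 6.30 and 6.18 on WT arrays and at 5.87, 6.13 and 6.36 on Raptorfl/fl arrays, a difference of -0.19 (95% interval -0.50 to 0.13, limma adjusted p = 0.58). Id1 was at 4.58, 4.71, 4.48 and 3.87 on WT arrays and at 4.33, 4.64 and 4.48 on Raptorfl/fl arrays, a difference of 0.07 (-0.22 to 0.37, limma adjusted p = 0.879). The lowest Id1 value was that of WT array 4, and without this array the difference was -0.11.

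The E protein genes of ISP cells kept narrow intervals around 0. Tcf12, which encodes HEB, ranged from 9.18 to 9.31 on WT and from 9.22 to 9.35 on Raptorfl/fl arrays, a difference of 0.04 (95% interval -0.10 to 0.18). Tcf3 ranged from 8.51 to 8.81 on WT arrays, the top value being array 1, and from 8.43 to 8.51 on Raptorfl/fl arrays, a difference of -0.12 (-0.28 to 0.04). Tcf4 ranged from 6.51 to 6.73 and from 6.59 to 6.92, a difference of 0.09 (-0.10 to 0.29). The limma adjusted p of the 3 genes ran from 0.413 to 0.854.

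Genes that E proteins are known to control moved in both directions in Raptorfl/fl ISP cells. Of 20 measured genes of this list (23 listed), 7 rose, 3 fell and 10 did not pass, with a median difference of 0.26 beside -0.004 over all genes. Notch3, a Notch receptor gene of early thymocytes, rose by 1.36 (SE 0.12, limma adjusted p = 7.8e-07) and Foxo1, a transcription factor of quiescence, by 0.94. Ptcra, the pre-TCR α chain gene, rose by 0.63 and Notch1 by 0.56; both were named after their values were seen. Hes1, a Notch target and repressor, fell by 0.98, and Il7r, the receptor chain for interleukin-7, fell by 1.68. When ISP arrays alone were fitted, 5 genes of the list passed in place of 10, and 2 in place of 4 in the receptor route described next.

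Genes of the receptor route that induces Id3 were called in both directions. In this list 3 of 20 measured genes (24 listed) fell, 1 rose and 16 did not pass, with a median of -0.02. Nr4a1, an orphan receptor gene switched on by receptor signals, fell by 1.30. Cd69, an activation marker, was at -0.70 and -0.52 without Raptorfl/fl array 2, where its call was lost (limma adjusted p = 0.106). Dusp2, of the same list, was at -0.42. Its call was lost without Raptorfl/fl array 1 (-0.22) or WT arrays 1 or 3 (-0.42 and -0.35). Rasgrp1, an activator of Ras below the receptor, rose by 0.67. The EGR genes, named after their values were seen, did not pass, and their 95% intervals were wide. Egr1 was at -0.14 (-0.49 to 0.21), Egr2 at -0.09 (-0.43 to 0.26) and Egr3 at 0.05 (-0.29 to 0.38). Of the BMP and TGF-β route, also known to induce Id genes, 1 of 20 rose, 1 fell and 18 did not pass (median 0.03). Bmp7, a ligand gene, fell by 0.64. The call of the receptor gene Tgfbr1 (0.33) was lost when any of Raptorfl/fl arrays 1 to 3 (0.35, 0.35 and 0.28) or WT arrays 1, 3 or 4 (0.34, 0.33 and 0.29) was left out.

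Of 18 other helix-loop-helix genes and their partners 1 fell in ISP cells (Hes1), none rose and 17 did not pass, with a median of -0.02. Many had WT signals near or below the array medians of 3.80 to 3.88, from Bhlhe41 at 2.77 to Id4 at 3.81, where a change could be missed. Ldb1 (9.30), Myc (8.95), Lmo4 (8.36), Mxd4 (7.71) and Hes1 (6.00) lay well above the medians. Id4, the remaining Id gene, was at -0.06 and was also named after its value was seen. Among 17 measured factors of γδ T cells (19 listed) 2 rose, 1 fell and 14 did not pass; Cd27, a costimulatory receptor gene, rose by 0.83 and Lef1, a partner of β-catenin, by 0.68. Beside the fall of Id3, all 4 measured DN3a markers rose in Raptorfl/fl ISP cells, namely Dtx1 (1.81), Ptcra (0.63), Notch1 (0.56) and Il2ra (0.48; call lost without Raptorfl/fl arrays 2 or 3, at 0.52 and 0.38, or WT arrays 3 or 4, at 0.32 and 0.48), and the log2 of their summed signal was 10.56 to 10.71 against 9.75 to 10.13 in WT. Of 4 mature αβ markers Klf2 fell by 1.26 and 3 did not pass, with sums of 11.45 to 11.50 and 11.38 to 11.63. Of 7 endothelial and epithelial markers Pecam1 (0.39) and Eng (0.51; 0.41 to 0.47 where its call was lost, without Raptorfl/fl arrays 2 or 3 or WT arrays 3 or 4) rose, with sums of 8.35 to 8.51 against 8.05 to 8.29. Cd8a (0.04) and Mki67 (0.23), a proliferation marker, did not pass. In DN3a cells 2 of the 4 DN3a markers also rose with the Raptorfl/fl label, Dtx1 (1.38) and Ptcra (0.68). The sums over the 4 were 14.04 to 14.12 there against 13.67 to 13.73 in WT DN3a arrays. The part of these markers in the Id3 difference was not tested.

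In DN3a cells none of the 6 genes passed in limma (0 of 6, and 0 of 6 at an unadjusted p under 0.05), where 0.983% of all genes passed, 0.712% higher and 0.271% lower. After quantile normalization across all arrays 54.9% of the genes called here were higher, in place of 72.5%. Id3 was at 7.0, 6.99 and 7.41 on WT and at 6.96, 7.32 and 7.19 on Raptorfl/fl arrays, a difference of 0.02 (95% interval -0.25 to 0.29, limma adjusted p = 0.985). Id2 was at 7.38, 7.53 and 7.81 on WT and at 7.75, 7.35 and 7.95 on Raptorfl/fl arrays, a difference of 0.11 (-0.23 to 0.44). The genotypes overlapped for both. Id1 was the gene whose groups did not overlap, at 5.91, 5.82 and 5.79 on WT and at 6.02, 6.03 and 6.02 on Raptorfl/fl arrays, but its difference of 0.19 did not pass (limma adjusted p = 0.749). An exact two-sided permutation test gave p = 0.1 for Id1, the smallest that 3 against 3 arrays allow. The share of all genes without overlap is not given here. These Id1 signals lay at or below the array medians.

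The E protein genes of DN3a cells differed by less than 0.10 log2 units between genotypes. Tcf3 was at 9.99 ± 0.07 in WT and 9.93 ± 0.07 in Raptorfl/fl arrays (SD, n = 3 each), Tcf4 at 9.28 ± 0.10 and 9.20 ± 0.15, and Tcf12 at 11.30 ± 0.05 and 11.38 ± 0.04. The widest 95% interval, that of Tcf4, ran from -0.29 to 0.13. Among genes around them Ptcra rose by 0.68 and Cd3d, a CD3 chain gene, by 0.43, the 2 of 20 E protein dependent genes that passed (median 0.14; 0.011 over all genes). None of 20 genes of the receptor route and none of 18 helix-loop-helix relatives passed in limma. Smad7, an inhibitor of TGF-β signalling, fell by 0.43, 1 of 20 in its list; with DN3a arrays alone fitted it did not pass (limma adjusted p = 0.0608). Of 17 γδ factors 3 passed, all higher, and Lef1 was at 0.76. The other 2 calls were lost without any of Raptorfl/fl arrays 1 to 3 or WT arrays 1 or 2, leaving 1: Sox13 (0.51, and 0.48 to 0.55 with an array left out, WT array 3 included) and Maf (0.37, and 0.29 to 0.41 without one of those 5 arrays).

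WT γδ T cells differed from WT DN3a cells in 3 of the 6 genes: Id3 and Id2 rose and Tcf4 fell. Of all genes 25.1% passed in this comparison, 12.7% higher and 12.3% lower. Id3 was at 7.0, 6.99 and 7.41 on DN3a arrays and at 10.03, 9.79 and 9.90 on γδ arrays. The populations were 2.38 log2 units apart at their closest arrays. The mean difference was 2.77 (SE 0.13, limma adjusted p = 1.4e-12), a 6.84-fold higher signal. Id2 was at 7.38, 7.53 and 7.81 on DN3a arrays and at 8.80, 8.46 and 8.49 on γδ arrays, again with no overlap. Its difference was 1.01 (SE 0.16, limma adjusted p = 5.7e-05), a 2.02-fold higher signal. Beside it 5 of 7 natural killer and innate lymphoid markers rose (median 0.47), among them Prf1 (1.96), Gzma (1.60) and Eomes (1.48), with a log2 summed signal of 11.84 to 12.04 in γδ and 10.40 to 10.44 in DN3a arrays. Klrb1c, a defining receptor gene, encodes NK1.1, whose absence was part of the γδ gate. Klrb1c rose but stayed below the array medians, at 5.20 ± 0.28 in WT γδ and 4.74 ± 0.09 in WT DN3a arrays (SD, n = 3 each). Its call was lost without WT DN3a arrays 1 or 3 (0.42 and 0.47) or WT γδ array 2 (0.31). Ncr1 (0.09), also a defining gene, did not pass, and the part of these markers in the Id2 difference was not tested. Id1 did not pass, at 5.84 ± 0.06 in DN3a and 5.74 ± 0.04 in γδ arrays (SD, n = 3 each; difference -0.10, limma adjusted p = 0.742).

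**Figure D2:**
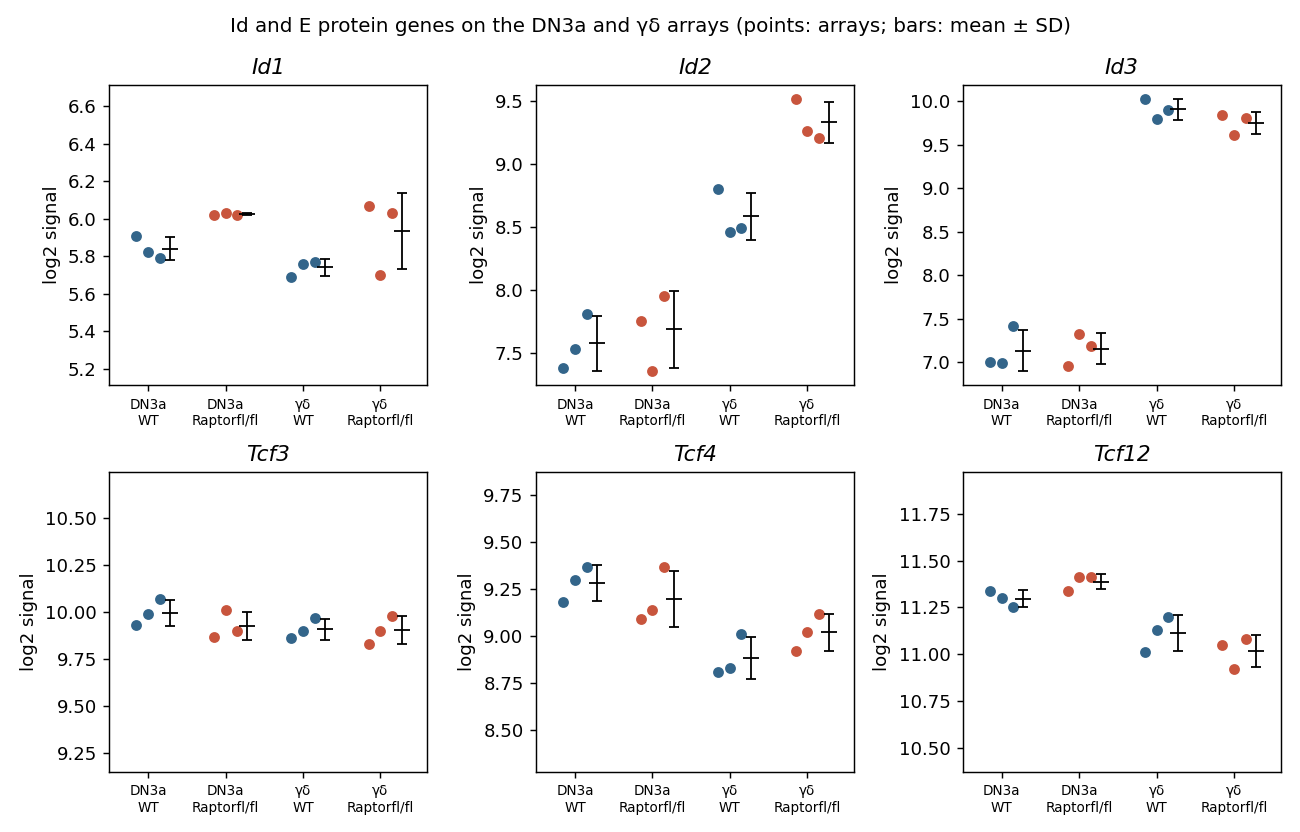
Log2 signal of the 6 genes on the DN3a and γδ arrays, 1 point per array (WT in blue, Raptorfl/fl in red, 3 arrays a group), with the mean ± SD as a black bar; each panel has its own axis range. Id3 and Id2 are higher in γδ T cells, Id2 is highest in Raptorfl/fl γδ T cells (9.21 to 9.52), and Tcf3 stays between 9.83 and 10.07 on all 12 arrays.

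The E protein genes were level or lower in γδ T cells. Tcf4 was at 9.18, 9.30 and 9.37 on WT DN3a arrays and at 8.81, 8.83 and 9.01 on WT γδ arrays. The groups did not overlap, and the difference was -0.40 (SE 0.10, limma adjusted p = 0.00476), which left 75.9% of the DN3a signal. Tcf12 was at 11.34, 11.30 and 11.25 against 11.01, 11.13 and 11.20, a difference of -0.18 that did not pass (95% interval -0.33 to -0.03, limma adjusted p = 0.0817). It passed without WT γδ array 3 (-0.22, limma adjusted p = 0.0489). Tcf3 was at 9.93, 9.99 and 10.07 against 9.86, 9.90 and 9.97, with overlap and a difference of -0.09 (-0.26 to 0.09). Exact two-sided permutation tests gave p = 0.1 for Id3, Id2, Tcf4, Tcf12 and Id1, the smallest that 3 against 3 arrays allow, and 0.2 for Tcf3. Beside Tcf4, 2 of 7 markers of plasmacytoid dendritic cells fell and 3 rose, the log2 of their summed signal was 11.08 to 11.21 in γδ and 11.88 to 11.97 in DN3a arrays, and their defining gene Siglech differed by -0.17 without passing. Those that fell were Spib (8.08 ± 0.14 in WT DN3a and 4.65 ± 0.17 in WT γδ arrays) and Bst2 (11.65 ± 0.05 and 10.34 ± 0.19). Bst2 was the largest part of the sums in both populations, and Siglech (5.80 ± 0.13 and 5.62 ± 0.16) lay below the array medians. Ccr9 (7.11 ± 0.09 and 9.04 ± 0.13), Pacsin1 (6.04 ± 0.05 and 7.44 ± 0.37) and Irf8 (6.62 ± 0.10 and 7.23 ± 0.10) rose (SD, n = 3 each). Of 6 B cell markers 1 rose and 1 fell, with sums of 9.17 to 9.31 and 9.41 to 9.50. The part of these markers in the Tcf4 difference was not tested.

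Around the Id genes, 15 of 20 measured genes of the receptor route rose in WT γδ T cells and the other 5 did not pass, with a median of 1.04 beside -0.004 over all genes. Nr4a1 rose by 2.79, Zap70, the kinase recruited to the receptor, by 2.24, Rasgrp1 by 2.13 and Nab2, a cofactor that EGR factors induce, by 1.95. The EGR genes, named after their values were seen, rose as well, Egr1 by 1.67, Egr3 by 1.44 and Egr2 by 1.03. Of the BMP and TGF-β route 13 of 20 rose, 1 fell and 6 missed the threshold (median 0.84). The ligand gene Tgfb3 rose by 2.59, the receptor gene Tgfbr2 by 2.11, and the inhibitors Smad7 and Skil by 1.69 and 1.67.

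Genes that E proteins are known to control were mostly lower in WT γδ T cells: 12 of 20 fell, 3 rose and 5 did not pass, with a median of -0.63. Among those that fell were Ptcra (-4.28), the recombinase gene Rag2 (-3.85), Notch3 (-3.16) and Dntt (-2.01), which encodes terminal transferase. The 3 that rose were Foxo1 (1.76), Gata3 (1.45), a factor of T-cell development, and Ets1 (0.42), given here because the other calls were lower. The list does not sort its genes by whether E proteins raise or lower them. Of 17 γδ factors 15 were higher and none was lower (median 1.45). Il2rb, an interleukin receptor chain, rose by 5.21, Etv5 by 5.08, Il23r, of the IL-17 lineage, by 4.91 and the transcription factor gene Maf by 4.25. Among 18 helix-loop-helix relatives Lmo4, an adaptor that binds such factors, rose by 0.68, Hes1 (-1.54) and Myc (-1.68) fell, and 15 did not pass. Mature αβ T-cell markers stood beside these values with 2 of 4 higher, Ccr7 by 1.96 and Klf2 by 1.92.

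**Figure D3:**
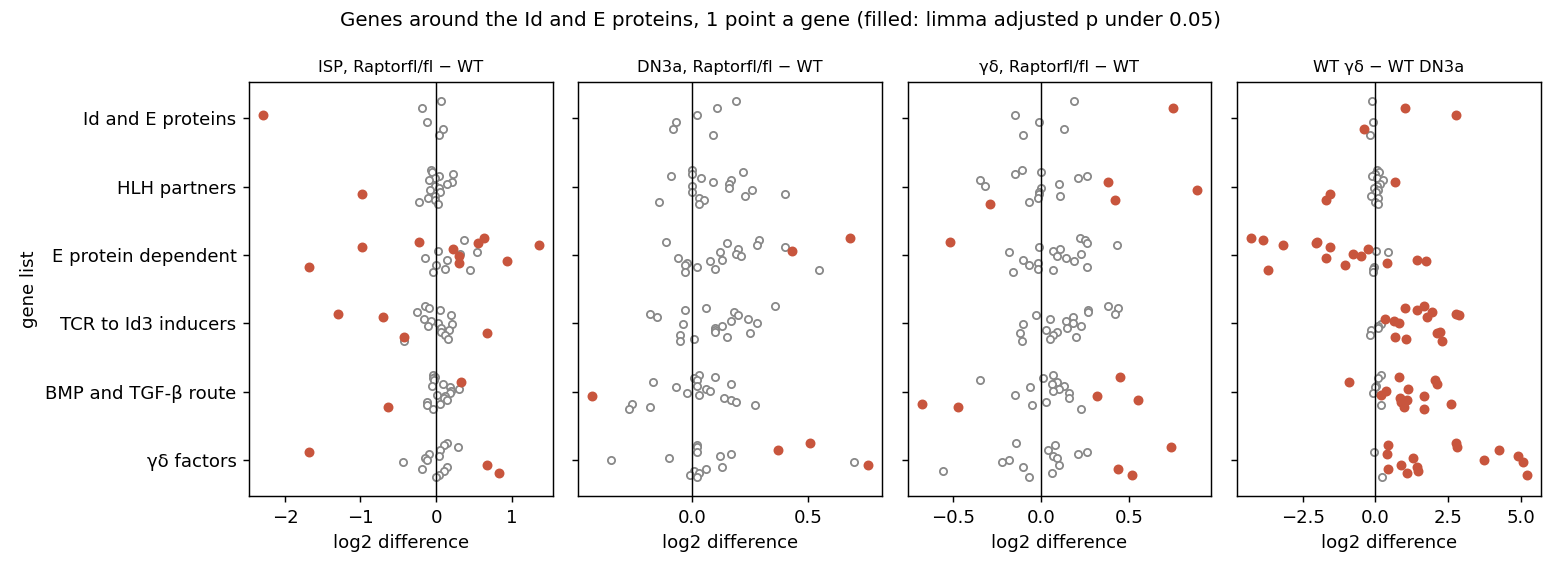
Log2 difference of each gene, 1 point a gene, for the Id and E protein genes and the 5 lists around them in the 4 comparisons; filled red points passed limma's adjusted p under 0.05, open points did not, and each panel has its own scale. In the WT γδ against DN3a panel the receptor route lies to the right (15 of 20 higher) and the E protein dependent genes to the left (12 of 20 lower).

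In Raptorfl/fl γδ T cells 1 of the 6 genes changed: Id2 rose above its WT level. In this comparison 3.05% of all genes passed, 1.77% higher and 1.28% lower. Median centring put 74.9% of the called genes on the higher side, in place of 58.1%. Id2 was at 8.80, 8.46 and 8.49 on WT arrays and at 9.52, 9.26 and 9.21 on Raptorfl/fl arrays. The genotypes did not overlap, with 0.41 between the closest arrays. The difference was 0.75 (SE 0.16, limma adjusted p = 0.013; exact two-sided permutation p = 0.1, the smallest possible), a 1.68-fold higher signal. The call was lost without WT array 2 (0.68, limma adjusted p = 0.0704) or WT array 3 (0.70, limma adjusted p = 0.0592).

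Id3 did not pass in Raptorfl/fl γδ T cells, at 10.03, 9.79 and 9.90 on WT and 9.84, 9.61 and 9.81 on Raptorfl/fl arrays. These overlapped, and the difference was -0.15 (95% interval -0.42 to 0.11, limma adjusted p = 0.592). Id1 was at 5.69, 5.76 and 5.77 on WT and at 6.07, 5.70 and 6.03 on Raptorfl/fl arrays, with array 2 at the WT level (difference 0.19, limma adjusted p = 0.569). Among the E proteins Tcf3 differed by -0.01 (-0.18 to 0.16), Tcf12 by -0.10 (-0.25 to 0.06) and Tcf4 by 0.13 (-0.07 to 0.34), and their groups overlapped.

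**Figure D4:**
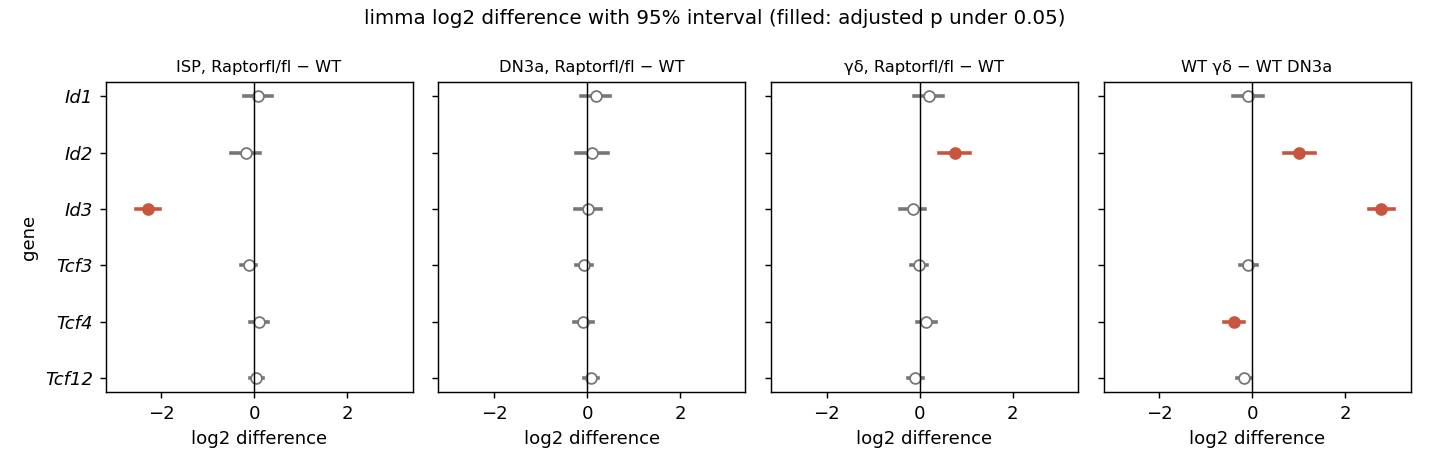
Limma log2 differences of the 6 genes in the 4 comparisons, with lines for the 95% interval and filled red points for an adjusted p under 0.05. The 5 filled points are Id3 in ISP cells (-2.29), Id2 in Raptorfl/fl γδ T cells (0.75), and Id3 (2.77), Id2 (1.01) and Tcf4 (-0.40) between WT γδ and DN3a cells.

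Around Id2 in Raptorfl/fl γδ T cells, Zbtb16, the transcription factor PLZF of innate-like T cells, rose by 0.74, Bhlhe40, a helix-loop-helix repressor, by 0.89 and Smurf2, a ubiquitin ligase that acts on SMAD proteins and type I receptors, by 0.55. Of 18 helix-loop-helix relatives 3 rose, 1 fell and 14 did not pass (median near 0); 1 passed without Raptorfl/fl array 2 or WT array 3 and 2 without Raptorfl/fl array 3 or WT array 2. Of 17 γδ factors 3 rose, none fell and 14 did not pass (median 0.07), and 1 passed without Raptorfl/fl arrays 2 or 3 or WT arrays 1 or 3. Of 20 genes of the BMP and TGF-β route 3 rose, 2 fell and 15 did not pass (median 0.07); Tgfb3 was at -0.68. With 1 array left out 3 of them passed without Raptorfl/fl array 2 or WT arrays 1 or 3, and 2 without WT array 2. With γδ arrays alone fitted 2 genes of this list and 1 of the helix-loop-helix relatives passed. Of 20 E protein dependent genes Dntt was the 1 that passed, lower by 0.52 (2 genes passed without Raptorfl/fl array 2 or WT array 3). By limma none of 20 genes of the receptor route passed.

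Genes in the marker lists of other cells moved beside Id2. Of 7 natural killer and innate lymphoid markers 1 rose (Tbx21, 0.44; 0.37 to 0.47 where its call was lost, without Raptorfl/fl arrays 2 or 3 or any WT array) and 1 fell (Gzma, -0.37; -0.38 to -0.29 where its call was lost, without any Raptorfl/fl array or WT arrays 2 or 3), and the log2 of their summed signal was 11.68 to 11.72 in Raptorfl/fl and 11.84 to 12.04 in WT γδ arrays. Their defining receptor genes Ncr1 (-0.16) and Klrb1c (-0.14) did not pass. Both lay below the array medians of 6.03 to 6.13, and Klrb1c encodes NK1.1, whose absence was part of the γδ gate. Of 4 ISP markers 3 fell, Cd8b1 (-1.72), Mki67 (-0.74) and Cd8a (-0.53), with sums of 10.57 to 10.91 against 11.43 to 11.74. The Cd8a call was lost without Raptorfl/fl arrays 2 or 3 or WT arrays 2 or 3 (-0.58 to -0.38). Most of each sum was Mki67, a proliferation marker, at 10.57 ± 0.17 in Raptorfl/fl and 11.31 ± 0.19 in WT γδ arrays. Cd8b1 came next, at 7.09 ± 0.61 and 8.81 ± 0.05 (SD, n = 3 each). The part of these markers in the Id2 difference was not tested.

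Across the 4 groups of DN3a and γδ arrays Id2 means were 7.57 ± 0.22 in WT DN3a, 7.68 ± 0.31 in Raptorfl/fl DN3a, 8.59 ± 0.19 in WT γδ and 9.33 ± 0.17 in Raptorfl/fl γδ arrays (SD, n = 3 each), and only the DN3a neighbours overlapped. Id3 had 2 levels, 7.13 ± 0.24 and 7.15 ± 0.18 in WT and Raptorfl/fl DN3a against 9.75 ± 0.13 and 9.91 ± 0.12 in Raptorfl/fl and WT γδ arrays, with overlap inside each pair. For Tcf4 the order was WT γδ (8.88 ± 0.11), Raptorfl/fl γδ (9.02 ± 0.10), Raptorfl/fl DN3a (9.20 ± 0.15) and WT DN3a (9.28 ± 0.10), and each overlapped its neighbour. For Tcf12 it was Raptorfl/fl γδ (11.02 ± 0.09), WT γδ (11.12 ± 0.10), WT DN3a (11.30 ± 0.05) and Raptorfl/fl DN3a (11.38 ± 0.04), with no overlap between WT γδ and WT DN3a arrays. Tcf3 means spanned 9.90 to 9.99 and Id1 means 5.74 to 6.03. WT DN3a and WT γδ arrays each serve in 2 comparisons, so those comparisons are not independent.

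The genotype effects were then set against each other, which for ISP cells compares differences of separately scaled arrays and not levels. For Id3 the effect in ISP cells was lower than in DN3a cells by -2.31 (SE 0.17, limma adjusted p = 5.0e-07) and lower than in γδ T cells by -2.13 (SE 0.17, limma adjusted p = 9.6e-07). For Id2 the effect in γδ T cells and in ISP cells differed, by -0.93 as ISP minus γδ (SE 0.22, limma adjusted p = 0.0153). The Id2 effect in γδ T cells was not shown to differ from that in DN3a cells (0.64, 95% interval 0.16 to 1.11 before adjustment, limma adjusted p = 0.343). So 1 of 6 genes passed for ISP against DN3a cells, where 7.01% of all genes did, 2 of 6 for ISP against γδ T cells (5.78% of all genes), and 0 of 6 for γδ against DN3a cells (0.600% of all genes; Id2 was the 1 at an unadjusted p under 0.05).

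The genes whose signal ran most like that of Id3, by Pearson correlation of log2 values among 17424 genes, were St6gal1, Trib2 and Zfp36 over the 12 DN3a and γδ arrays (r = 0.996 each). Over the 7 ISP arrays they were Ube2l3 (0.995), Ndufb6 and Mrps34 (0.993 each). For Id2 they were Phf11c (0.982), Cd160 (0.981) and Smurf2 (0.976) over the 12 arrays, and Spink7 (0.972), Scaf1 (0.966) and Fbxw7 (0.961) in ISP cells. For Tcf4 they were Ube3a (0.969), Wdr3 and Cbfa2t2 (0.947 each), and in ISP cells Cdk7 (0.983), Fbxo43 (0.979) and Tbc1d22a (0.975). The points share their population, genotype and normalization, and the values are a description.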

How the data were processed

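The deposited values are log2 expression values per probe set, made by the authors with RMA in Partek 6.6 per the submitters' processing notes, from 12 ng of RNA per array. The sources used here do not state which arrays shared a normalization, and the array medians show 2 scales. Of 41345 probe sets 23521 had 1 gene symbol (1814 several, 16010 none in the table used), and the probe set with the highest mean over all arrays stood for each of 22180 genes. Symbols were updated through Entrez IDs with the RefSeq table of GRCm38.p6 (23328 probe sets).

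Differences were fitted with limma 3.58.1 in R 4.3.3 (lmFit, eBayes) in 1 model of 6 group means over 19 arrays, with Benjamini-Hochberg adjustment over all genes and a threshold of 0.05; every adjusted p is limma's. The fit was tested on simulated data. There were 4 comparisons and 3 differences of genotype effects. Exact permutation tests are two-sided, on single genes. The 5 gene lists (99 genes, 92 measured), the members and the marker lists were chosen with earlier results of these data known, and are described by counts and medians. Named were the members, Rptor, the lowest-p genes of each list in a comparison (at most 4) and, in the likeness search, the 3 highest correlations; other names are marked, or are markers. Figures were drawn with matplotlib 3.10.9. Alternatives changed the arrays fitted, normalization, probe sets, dim genes, variance model, array weights and block, and left out each array. The number of arrays limits the precision.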

Additional observations from a re-analysis of the deposited data

Results flagged for a closer look

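Differences between populations passed for 2 genes. The effect of genotype on Id3 differed between ISP and DN3a cells (-2.31, limma adjusted p = 5.0e-07) and between ISP and γδ T cells (-2.13, limma adjusted p = 9.6e-07). For Id2 it differed between ISP and γδ T cells (-0.93, limma adjusted p = 0.0153). All 3 set differences from 2 separately scaled sets of arrays against each other.

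Single arrays lay apart in the WT ISP group, the 1 group large enough (4 arrays) for a test of the gap. Tcf3 was at 8.81 on WT ISP array 1 and at 8.51 to 8.56 on the other 3. Cd27 was at 9.14 on array 4 and at 8.68 to 8.73 on the others, and Lef1 at 10.31 on array 2 and at 10.19 to 10.21 on the others. This was 3 of 18 genes looked at, where chance gives about 1 in 20.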

How the results depend on the processing

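Over 8 other settings Id3 in ISP cells ran from -2.30 to -2.01, Id2 in Raptorfl/fl γδ T cells from 0.71 to 0.79, and between WT γδ and DN3a cells Id3 from 2.76 to 2.93, Id2 from 1.00 to 1.06 and Tcf4 from -0.45 to -0.40. Deviations of same-numbered arrays correlated at -0.013 to 0.099 in ISP, 0.013 to 0.242 in DN3a and -0.104 to -0.003 in γδ T cells. Between WT γδ and DN3a cells they correlated at 0.026 to 0.099. For differently numbered arrays the values were, in the same order, -0.068 to 0.06, -0.25 to 0.111, -0.102 to 0.116 and -0.087 to 0.022. Every same-numbered value between WT γδ and DN3a cells was thus above every differently numbered one. The numbers were not taken to pair samples in the main fit, but these values do not settle whether they do. With the replicate number as a block, fitted on the arrays compared, Id3 in ISP cells was at -2.27 with limma adjusted p = 0.0528, so 0 members were called, and limma called 0 of 22180 genes there (4063 at an unadjusted p under 0.05; 2759 without the block). The block gave 275 genes in place of 677 in γδ T cells, and it changed no other call of a member. In the gene lists the block left 0 calls in all 5 lists of ISP cells, 0 of 1 (Smad7) in the BMP and TGF-β route of DN3a cells, and in γδ T cells 1 of 5 in that route, 1 of 4 among helix-loop-helix relatives and 0 of 1 (Dntt) among E protein dependent genes. Fitting only the arrays compared gave 1313 genes in ISP cells, 144 in place of 218 in DN3a cells and 345 in γδ T cells; this leaves fewer arrays for the spread. Tcf12 between WT γδ and DN3a cells passed without dim genes (limma adjusted p = 0.039), with trend and robust variances (0.0283) and with array weights (0.027), so 4 members were called. With 1 array left out the members called were 1 in ISP cells, 0 in DN3a cells, 0 to 1 in γδ T cells and 3 to 4 between WT populations. Genes called ran from 1899 to 2671 in ISP cells, from 124 to 254 in DN3a cells (127 without Raptorfl/fl array 2, 144 without WT arrays 1 or 3, 124 without WT array 2) and from 333 to 782 in γδ T cells (363 without Raptorfl/fl array 2, 333 without WT array 2, 434 without WT array 3). No called value of a member changed sign. The cause of these changes was not tested.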
